A study of Homo sapiens with 2 samples.

Results

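The 8 genes described here, PKM, CD44, MST1R, BIN1, HIPK3, CRK, FN1 and NUMB, make splice isoforms that have been studied in cancer. They were followed through their exon rows, that is, the listed exons on the gene's strand inside a fixed window of the hg19 genome around each gene. These windows held 153 of the 239322 exon rows, with 43 rows in FN1, 21 in BIN1, 20 in MST1R, 19 in HIPK3, 18 in CD44, 15 in PKM, 14 in NUMB and 3 in CRK. The rule for the rows uses position and strand only, but the genes were chosen with earlier results of these data known. Huh-7 cells, a human hepatocellular carcinoma line, received either 0.1% DMSO as the control or BS008, a derivative of the diuretic amiloride, at 0.1 mM, both for 24 h by their treatment labels, and libraries were made from Trizol RNA with an mRNA kit from Illumina. The protocol text of both samples names BS008, so the groups, and with them the direction of every ratio, rest on the treatment label of each. Each condition had 1 library. The sequencing was done to look for genes with altered splicing in BS008-treated cells. The files carry no gene names, so the identity of the cells was not checked against hepatocyte markers.

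Alternative splicing joins different sets of exons of 1 pre-mRNA and so lets a gene make several proteins. In tumours the choice often shifts: PKM is spliced to the M2 form of pyruvate kinase in growing cells, fibronectin regains an extra domain that adult tissue mostly lacks, and adaptors such as NUMB gain or lose short protein segments. Such a choice changes the reads on 1 exon relative to its neighbours, whereas a change of transcript level moves all rows of the gene together. Both measures are therefore given below.

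The exons on which the results turned are shown first, from GENCODE release 29 transcripts on GRCh38. The deposited rows are on hg19, and the link between them rests on exon length, order and spacing. In this way 119 of the 153 rows were linked to a transcript exon, and all 111 spacings between linked rows that could be compared were equal. The mutually exclusive exons of PKM, M1 (chr15:72203022-72203188, minus strand) and M2 (chr15:72202454-72202620, minus strand), have 167 bases each. They share 105 bases (62.9%) position by position, and capitals mark the 62 bases at which they differ.
PKM exon 9 (M1): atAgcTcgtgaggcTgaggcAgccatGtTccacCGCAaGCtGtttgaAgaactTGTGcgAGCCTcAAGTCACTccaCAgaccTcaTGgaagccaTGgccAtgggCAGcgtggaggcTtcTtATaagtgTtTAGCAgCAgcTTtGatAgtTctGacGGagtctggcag
PKM exon 10 (M2): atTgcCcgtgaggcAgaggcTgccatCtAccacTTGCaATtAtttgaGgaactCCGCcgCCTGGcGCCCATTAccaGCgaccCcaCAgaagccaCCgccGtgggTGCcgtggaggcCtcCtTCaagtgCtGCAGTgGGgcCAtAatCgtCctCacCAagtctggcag

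The EDB exon of FN1 (chr2:215392931-215393203, minus strand, exon 25 of the FN1 transcript used for the link) encodes a whole fibronectin type III repeat in 91 codons. It is shown because it had the largest relative gain among the known alternative exons with at least 100 reads.
FN1 EDB: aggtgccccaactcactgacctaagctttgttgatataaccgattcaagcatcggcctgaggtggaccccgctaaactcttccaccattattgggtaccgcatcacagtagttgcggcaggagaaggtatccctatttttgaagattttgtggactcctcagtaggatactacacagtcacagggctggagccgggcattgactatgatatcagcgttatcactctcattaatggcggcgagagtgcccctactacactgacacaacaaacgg
The U exon of HIPK3 (chr11:33348166-33348228, plus strand, exon 12 of the annotated transcript that holds it) has 21 codons and sets the U(+) and U(-) forms apart. It is the exon that the RT-PCR primers of the study span, agcctgccactaccaagaaa in exon 11 and cagcaatttcttgcctctcc in exon 13 of that transcript. Placed on the transcripts, they enclose 244 bp with the U exon and 181 bp without it.
HIPK3 U exon: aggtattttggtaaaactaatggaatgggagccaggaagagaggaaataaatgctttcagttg
The alternative exons of NUMB are exon 9 (chr14:73279281-73279424, minus strand, 48 codons), which lengthens the proline-rich region, and exon 3 (chr14:73316390-73316422, minus strand, 11 codons), which adds residues to the phosphotyrosine-binding domain.
NUMB exon 9: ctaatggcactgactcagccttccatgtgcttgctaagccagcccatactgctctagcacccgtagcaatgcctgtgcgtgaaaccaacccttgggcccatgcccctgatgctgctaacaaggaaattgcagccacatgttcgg
NUMB exon 3: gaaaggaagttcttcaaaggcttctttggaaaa

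Reads on all exon rows summed to 55476654 in the control library and 53578432 in the BS008 library. The 8 genes held 337760 and 326819 of them, on 143 and 136 of the 153 rows. Of the rows, 110 had at least 10 counts in either library and entered the comparison, 43 were below that in both libraries, and 9 of these 43 were at 0 in both. Counts were divided by the library total and expressed as CPM, and a log2 ratio is that of BS008 to control on CPM plus a pseudocount of 0.5, which understates changes of low rows. With 1 library for each condition there was no test and no estimate of the spread between cultures. A difference between the cultures and an effect of BS008 cannot be told apart. The 95% intervals below cover counting error only and are not adjusted for the number of rows.

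No gene of the 8 differed by 2-fold between the libraries. PKM was the gene with the largest decrease, HIPK3 the one with the largest increase, and BIN1 was nearly level. PKM encodes pyruvate kinase, which makes pyruvate at the end of glycolysis. Its rows held 102909 reads in the control and 58305 in the BS008 library, or 562 and 330 RPKM (reads scaled to exon length and library total), 41.3% lower with BS008 (ratio 0.587, interval 0.581 to 0.593). HIPK3, a homeodomain-interacting protein kinase, was at 4.95 and 8.03 RPKM from 1432 and 2242 reads (ratio 1.62, 1.52 to 1.73). NUMB, an endocytic adaptor that restrains Notch signalling, was at 12.3 and 17.9 RPKM from 3615 and 5081 reads (ratio 1.46, 1.39 to 1.52). CRK, an adaptor that links tyrosine kinases to small GTPases, was at 12.1 and 16.5 RPKM from 1612 and 2114 reads (ratio 1.36, 1.27 to 1.45).

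Fibronectin, the extracellular matrix protein encoded by FN1, was at 314 and 371 RPKM from 221928 and 253259 reads (ratio 1.18, 1.17 to 1.19). BIN1, a membrane-bending adaptor that also binds MYC, was at 38.3 and 36.9 RPKM from 6162 and 5730 reads (ratio 0.963, 0.929 to 0.998). The receptor genes were almost silent in both libraries. MST1R, the receptor tyrosine kinase RON, held 66 and 47 reads, or 0.239 and 0.176 RPKM (ratio 0.737, 0.496 to 1.09). CD44, the hyaluronan receptor, held 36 and 41 reads, or 0.113 and 0.134 RPKM (ratio 1.18, 0.735 to 1.90). The intervals of both receptor genes included 1.

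**Figure D1:**
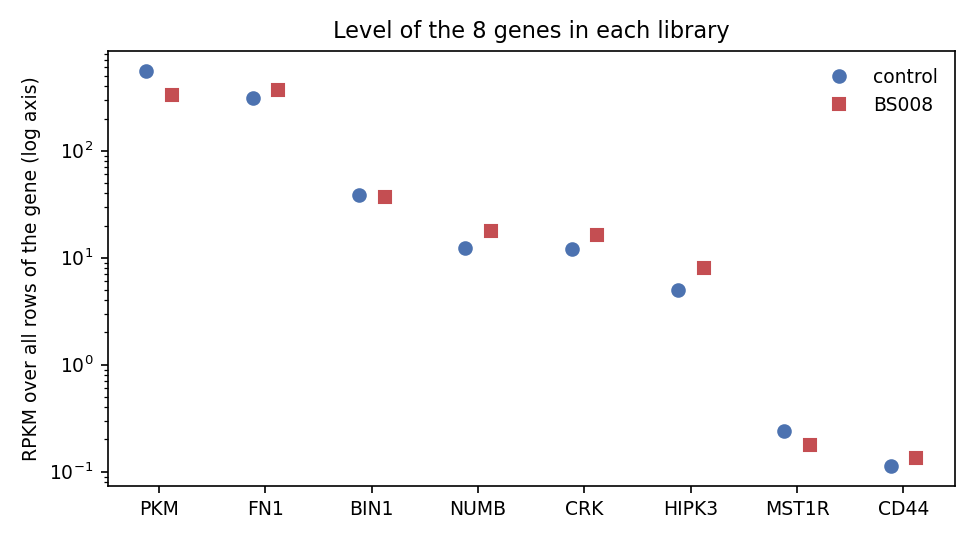
RPKM summed over all exon rows of each gene (log axis) in the control library (circles) and the BS008 library (squares), 1 library each, so there are no error bars. PKM was at 562 in control and 330 in BS008, HIPK3 went from 4.95 to 8.03, and CD44 and MST1R stayed under 0.25.

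Exon by exon, few members passed 2-fold on the ratio with the pseudocount. Of the 110 rows tested, 1 was at least 2-fold higher with BS008 (0.909%), against 3.73% of the 131330 rows tested in the whole files. In the other direction, 2 rows were at least 2-fold lower (1.82%), against 3.79% of all rows. Both shares were below those of all rows, with no test of the difference. Of the 110 rows, 43 were in FN1 and 13 in PKM, and rows of 1 gene are not independent. All 43 FN1 rows had at least 100 counts, whereas rows entered with 10. The median log2 ratio of the 110 rows was 0.22, and that of all rows tested was -0.04. The row called higher was the EDB exon of FN1, and the rows called lower were both in PKM. These calls depend on the pseudocount for rows with few reads. Row 2 of HIPK3, with 2 and 28 reads, had a CPM ratio of 14.5 but a log2 ratio of 0.93, and was not called. With a pseudocount of 0.1, 5 member rows were higher (4.55%, against 8.73% of all rows).

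Each row was also set against its nearest row on either side on the same strand, within 10 kb and with at least 20 reads in these rows in each library. Of the 93 member rows with such neighbours, 0 gained at least 10 percentage points of these reads with BS008, against 3.14% of 98954 rows in the whole files, and 2 lost as much (2.15%), against 2.84%. The shares of all rows were lower where reads were deeper. With at least 100 reads in these rows, 0 of 88 member rows gained as much, against 1.45% of all rows. The median absolute change, at 20 reads or more, was 1.76 points for the members and 2.06 points for all rows. The gain nearest to the limit was that of FN1 EDB, at 8.28 points. One loss was that of exon 4 of HIPK3 (chr11:33358621-33358740 on hg19), which went from 52.1 to 32.8% on 25 and 22 reads. The other was the first row of PKM (chr15:72523237-72523684 on hg19), which went from 92.4 to 76.4%. Its share of the reads of PKM was 3.79% in control and 3.65% with BS008, and 1 of its neighbours lies outside the window of the gene.

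FN1 was the most deeply read of the 8 genes, and its EDB exon (chr2:216257654-216257926 on hg19) had the clearest change in use. EDB is an alternative repeat of fibronectin known as a marker of fetal and tumour matrix. It held 1128 reads in the control and 2764 in the BS008 library, or 74.5 and 189 RPKM (log2 ratio 1.32), while the gene as a whole was at 0.24. Its share of the reads of FN1 was 0.508% in control and 1.09% with BS008, a ratio of 2.15 (2.0 to 2.30). Per base, EDB had 22.2% (20.9 to 23.6) of the reads of its flanking rows in control and 54.4% (52.3 to 56.7) with BS008, a ratio of 2.45 (2.28 to 2.64). Both flanks had nearly the same counts in the 2 libraries, with 10455 and 10131 reads on the upstream row and 5262 and 5566 on the downstream row.

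The percent of EDB against its flanks depended on the flank, and the ratio between libraries did not change direction. Against the upstream row of 192 bases alone it was 7.59 and 19.2% (ratio 2.53, 2.35 to 2.72). Against the downstream row alone, which has 652 bases and was not linked to a transcript exon, it was 51.2 and 119% (ratio 2.32, 2.14 to 2.51). With flanks that were linked to annotated exons on both sides, it was 8.04 and 20.2% (ratio 2.51, 2.33 to 2.70). The row length of 91 codons occurs at 1 more place in FN1, exon 19, and EDB was told from it by its order in the transcript. Exon 19 held 2780 and 3387 reads (log2 ratio 0.33).

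**Figure D2:**
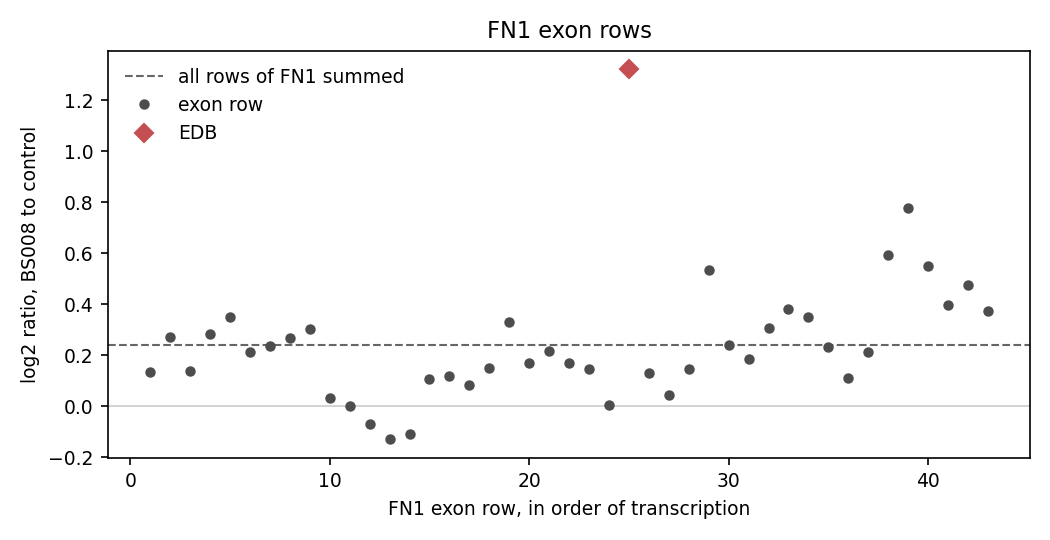
Log2 ratio of BS008 to control for each of the 43 exon rows of FN1 in order of transcription, with EDB as a diamond and the ratio of the summed gene as a dashed line at 0.24. EDB lies at 1.32, the next highest row is row 39 at 0.78, and the lowest is row 13 at -0.13.

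The rows that hold the other alternative regions of fibronectin had ratios near that of the gene, which does not show the use of the regions themselves. EDA, the second extra domain, lies inside a row of 3196 bases (chr2:216243853-216247048 on hg19) that spans exons 32 to 34 of the transcript, so its own reads could not be separated. That row held 18669 and 20529 reads (log2 ratio 0.19). The row of 467 bases at the variable IIICS region, which carries cell-binding sites (chr2:216236632-216237098 on hg19), held 17255 and 19339 reads (log2 ratio 0.21). It lies between the rows of exons 39 and 42 and was not linked to 1 exon, so reads of its variable part could not be separated either. After EDB, exon 43 (chr2:216232586-216232750 on hg19) gained most, with 4073 and 6763 reads (log2 ratio 0.78, share ratio 1.46, 1.40 to 1.51). The largest losses of share were on row 13 (chr2:216279385-216279681 on hg19), with 4532 and 3998 reads (share ratio 0.773, 0.741 to 0.807), and on exon 14 (chr2:216274657-216274837 on hg19), with 6136 and 5493 reads (share ratio 0.784, 0.756 to 0.814).

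The ratios of FN1 rows also varied along the transcript. The 24 rows upstream of EDB had a log2 ratio of 0.11 when summed and ranged from -0.13 to 0.35. The 18 rows downstream had 0.31 when summed and ranged from 0.04 to 0.78. In stretches chosen after their values were seen, the last 6 rows held 34117 and 46373 reads (log2 ratio 0.49), and rows 10 to 17 held 33015 and 31903 (0.00). EDB lay above both ranges. Of the 43 rows, 39 were above 0.

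In PKM the level was lower over nearly the whole gene, with 12 of the 13 rows that had at least 10 counts below 0. The balance between M1 and M2 hardly differed. The M1 exon (chr15:72495363-72495529 on hg19) held 88 reads in control and 54 with BS008, or 9.50 and 6.04 RPKM. The row with the M2 exon (chr15:72494795-72495005 on hg19) held 9350 and 5527 reads, or 799 and 489 RPKM, and has 44 bases beyond the 167 of the exon. M1 reads were 0.932% (0.757 to 1.15) of the reads on both rows in control and 0.968% (0.742 to 1.26) with BS008. The ratio of M1 to M2 between libraries was 1.04, with an interval from 0.724 to 1.48 that leaves room for a shift in either direction. Growing cells are known to make mostly the M2 form, and reads on the M2 row outnumbered those on the M1 exon in both libraries.

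Against the nearest constant rows, the upstream row 11 and the downstream row 14, M1 was at 1.24 and 1.44% of their reads per base (ratio 1.16, 0.812 to 1.65), and M2 at 104 and 117% (ratio 1.12, 1.07 to 1.17). The direction for M2 depended on the flank, with a ratio of 1.34 (1.28 to 1.40) against the upstream row and 0.767 (0.723 to 0.812) against the downstream row. These flanks moved apart themselves. Row 11 (chr15:72499069-72499236 on hg19) went from 10994 to 4852 reads (log2 ratio -1.13, share ratio 0.779, 0.752 to 0.807). Row 14, exon 10 of the M1 transcript (chr15:72492815-72492996 on hg19), went from 3896 to 3004 (log2 ratio -0.32, share ratio 1.36, 1.30 to 1.43).

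Exon 7 of PKM (chr15:72499468-72499618 on hg19), next to row 11, went from 9413 to 4069 reads (log2 ratio -1.15, share ratio 0.763, 0.734 to 0.793). Rows 10 and 11 were the rows past 2-fold in this direction. Exon 3 (chr15:72509750-72509841 on hg19) gained share, with 3877 and 2695 reads (log2 ratio -0.47, share ratio 1.23, 1.17 to 1.29). Among the 11 rows with at least 100 counts, all 11 were lower with BS008, between -1.15 and -0.32.

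**Figure D3:**
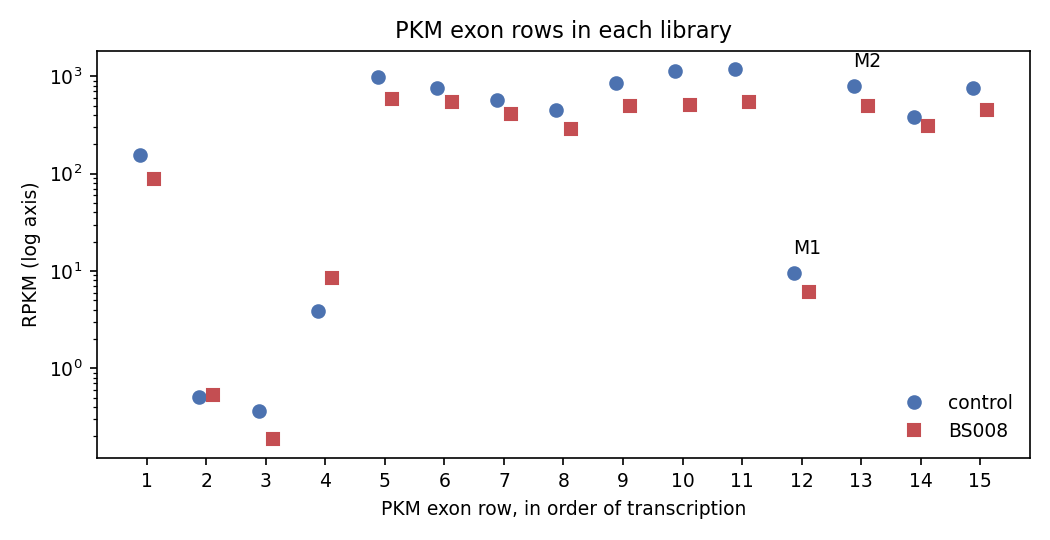
RPKM (log axis) of the 15 exon rows of PKM in order of transcription in the control library (circles) and the BS008 library (squares), 1 library each. The M1 exon lies at 9.50 and 6.04 beside 799 and 489 for the row with M2, and row 4 is the one row with at least 10 counts that was higher with BS008 (3.85 and 8.45).

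HIPK3 was higher with BS008 on 16 of the 18 rows with at least 10 counts, and the U exon was 1 of the 2 exceptions. The U exon (chr11:33369712-33369774 on hg19) held 14 reads in control and 12 with BS008. Its flanks went from 48 to 83 reads upstream and from 69 to 132 reads downstream. Per base, the U exon was at 87.2% (50.4 to 151) of its flanks in control and 40.7% (22.9 to 72.2) with BS008. The ratio was 0.466, and its interval of 0.191 to 1.13 included 1, so a lower use of the U exon was not detectable at this depth. Its share ratio was 0.547 (0.231 to 1.28). The other exception was exon 4, at 25 and 22 reads (log2 ratio -0.06), whose share ratio of 0.562 (0.301 to 1.04) also had an interval that included 1.

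The start of HIPK3 was read in different proportions. Row 2 (chr11:33279877-33280236 on hg19), which has the length and position of the first exon of another annotated HIPK3 transcript, held 2 reads in control and 28 with BS008. Row 1 (chr11:33279168-33279435 on hg19), the first listed row of the gene, was not linked to a transcript exon and held 32 and 55. Row 2 thus had 5.88% (1.63 to 19.1) of the reads on rows 1 and 2 in control and 33.7% (24.5 to 44.4) with BS008. The CPM ratio of row 2 was 14.5 (3.66 to 126), and its share ratio was 8.94 (2.25 to 77.5), an interval that left out 1. Row 2 lies outside the rule for named rows and was singled out after its values were seen. By that rule the largest gains were on exon 15, with 67 and 141 reads (share ratio 1.34, 0.989 to 1.84), and exon 13, with 69 and 132 (1.22, 0.899 to 1.67). Share-ratio intervals are rescaled from those of the odds, and for exon 15 this rescaling decides whether 1 is included. The largest losses were on exon 2, with 163 and 211 reads (0.827, 0.666 to 1.03), and exon 8, with 80 and 111 (0.886, 0.653 to 1.21).

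In NUMB both alternative exons had a lower share with BS008 while the gene was higher. Exon 9 (chr14:73745989-73746132 on hg19) held 159 reads in each library, and its share of the gene went from 4.40 to 3.13% (share ratio 0.711, 0.569 to 0.890). Per base, it was at 164% of its flanks in control and 112% with BS008 (ratio 0.679, 0.541 to 0.852). The downstream flank is the last row of 2712 bases, with 1716 and 2578 reads. Against the upstream flank alone, with 205 and 253 reads, the ratio was 0.810 (0.608 to 1.08), an interval that includes 1. The share ratio without the last row was 0.759.

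Exon 3 of NUMB (chr14:73783098-73783130 on hg19) held 27 reads in control and 16 with BS008, the only row of the gene with at least 10 counts that was lower. Its flanks were higher, with 58 and 71 reads upstream and 86 and 105 downstream. Per base, exon 3 went from 85.2 to 41.3% of its flanks (ratio 0.485, 0.235 to 0.976), and against each flank alone the interval reached 1.04 and 1.01. Its share ratio was 0.422 (0.212 to 0.813). The largest gain of share was on exon 4 of the linked transcript (chr14:73822334-73822474 on hg19), near the start of the gene, with 89 and 181 reads (log2 ratio 0.88, share ratio 1.45, 1.11 to 1.89). Among rows with at least 100 counts in either library the last row was next, at a share ratio of 1.07. It held 47.5% (45.8 to 49.1) of the reads of the gene in control and 50.7% (49.4 to 52.1) with BS008, intervals that do not overlap. After exon 9, the largest loss among these rows was on exon 2, which held 105 and 124 reads (share ratio 0.840, 0.646 to 1.09).

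**Figure D4:**
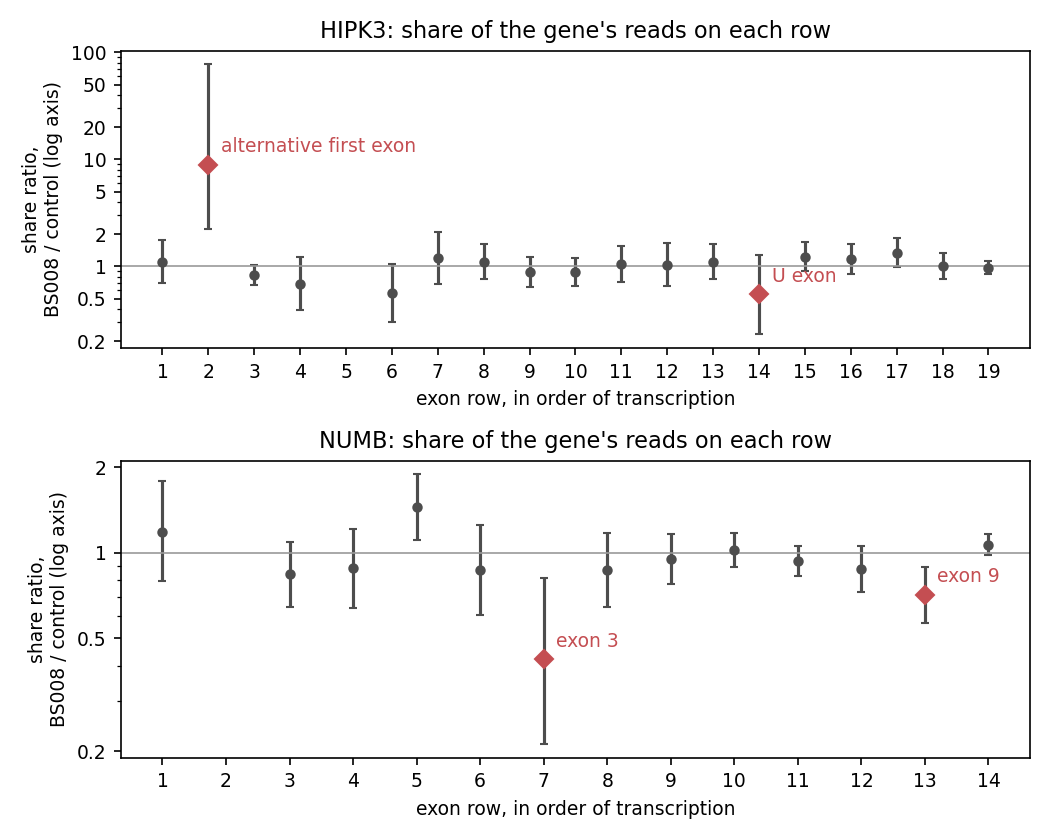
Share ratio, BS008 to control, of the share of a gene's reads on each exon row (log axis) for HIPK3 and NUMB in order of transcription. Bars are 95% counting intervals of the odds rescaled to the share ratio, too wide for rows with a large share, and rows of at least 10 counts are shown. In HIPK3 the alternative first exon lies at 8.94 and the U exon at 0.547. In NUMB exon 3 and exon 9 lie below 1 and row 5 above it, each with a bar that leaves out 1.

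BIN1 was nearly level between the libraries as a gene. The flank ratios given for its alternative exons had intervals that included 1, and those of exons with few reads were wide. The exon known as 12A (chr2:127815049-127815177 on hg19, 43 codons), whose inclusion in tumours disturbs the binding of BIN1 to MYC, held 193 and 227 reads. Per base, it was at 37.5% of its flanks in control and 45.7% with BS008 (ratio 1.22, 0.986 to 1.5). Its share ratio was 1.26 (1.04 to 1.54), so 1 of the 2 measures had an interval that left out 1. The exon of 30 codons (chr2:127808730-127808819 on hg19) held 86 and 104 reads and was at 24.0 and 30% of its flanks (ratio 1.25, 0.919 to 1.71). Exon 7 (chr2:127825739-127825831 on hg19), which is used mainly in neurons, held 10 and 17 reads and was at 2.70 and 5.46% (ratio 2.02, 0.866 to 4.97). The exon of 15 codons (chr2:127818172-127818216 on hg19) held 4 reads in control and 0 with BS008, where 0 reads allow up to 0.0560 CPM. This exon lies in the part of the gene that muscle uses to bind phosphoinositides.

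The rows of 36 codons in BIN1 were not unique and are given by position. Among them, chr2:127811481-127811588 on hg19 held 14 and 5 reads (share ratio 0.384, 0.108 to 1.13). Of the others, chr2:127809831-127809938 held 8 and 4, and chr2:127826500-127826607, exon 6, held 319 and 307. Among rows with at least 100 counts in either library, the 12A exon and the exon of 30 codons had the largest gain of share. The largest losses among these rows were on exon 18 of the linked transcript (chr2:127807997-127808098 on hg19), with 337 and 249 reads (share ratio 0.795, 0.672 to 0.940), and on exon 8 (chr2:127821509-127821594 on hg19), with 453 and 343 (0.814, 0.704 to 0.941).

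**Figure D5:**
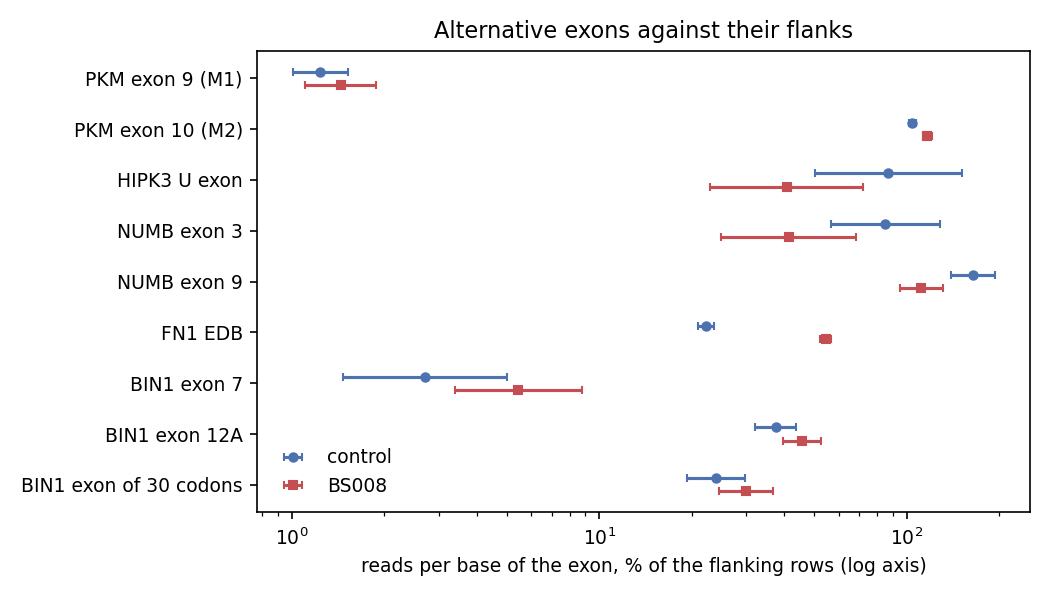
Reads per base of each known alternative exon with at least 10 counts in either library, as a percent of those of its nearest constant rows (log axis), in the control library (circles) and the BS008 library (squares) with 95% counting intervals. FN1 EDB moved from 22.2 to 54.4% with bars far apart, while the bars of the HIPK3 U exon overlap at 87.2 and 40.7%.

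In CRK all 3 rows were higher with BS008 and their shares were nearly the same. The rows held 54 and 68, 274 and 398, and 1284 and 1648 reads in order of transcription, at log2 ratios of 0.26, 0.54 and 0.40. CRK-I and CRK-II differ by a splice site inside the middle row (chr17:1339914-1340449 on hg19), so the counts do not tell the isoforms apart. The share ratio was 1.11 (0.935 to 1.31) for the middle row and 0.979 (0.835 to 1.15) for the last.

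For the receptor genes the depth was too low to compare isoforms. The 9 variable rows of CD44, which build the v isoforms of the stem region, held 1 read in control and 0 with BS008, and 8 of the 9 were at 0 in both libraries. The 9 constant rows held 35 and 41 reads. Exon 11 of MST1R (chr3:49933394-49933540 on hg19), whose skipping yields a form of RON that is active without its ligand, held 1 read in each library beside 8 and 6 on its flanks. No ratio is given for it.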

How the data were processed

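RNA of Huh-7 cells was sequenced from 1 control and 1 BS008 library, and both were used. Per the file headers, the deposited values are raw counts for 239322 exons, without normalization, and RPKM, in which the authors divided these counts by exon length and library total. Recomputed RPKM values differed from these by at most 4.7e-06. The build, hg19, comes from the submitters' processing notes. Aligner, counter, annotation and the handling of reads that match several places are not given in the sources used here. The kit named in the labels is not stated to keep strand, and 0 member rows overlapped another listed row on either strand.

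Members and lists were chosen with earlier results of these data known. Rows inside the 8 windows were taken by strand and summed per gene. Rows needed at least 10 counts in either library and were called at 2-fold. Reads per base of an alternative exon were divided by those of the nearest constant row on either side. Named were all 8 genes, their known alternative exons and up to 2 rows per gene with the largest rise and fall in share, if 1 library had at least 100 counts there. Shares have 95% Wilson intervals. Ratios have exact conditional intervals, or, for shares and flanks with all counts of at least 100, log-normal ones. The interval of a share ratio is that of the odds, multiplied by the share ratio over the odds ratio. It is too wide for rows that hold a large share of the gene, and it can include 1 where the interval of the odds does not. The limit for a count of 0 was set at 3 counts. Alternatives covered pseudocounts, scaling, filters, thresholds and reference rows, and flanks linked to annotated exons or on 1 side alone were added after the data were seen.

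The fixed rule for known exons did not pick 1 row in 4 cases. The M2 row of PKM is longer than M1 and was identified by spacing, EDB was picked by order, the unique row of 90 codons downstream of it is exon 28 and not EDA, and the rows of 36 codons in BIN1 were not unique. A list of 13 splicing regulators was not summed, since the gene table at hand is on GRCh38 and no coordinates were converted. Scripts were tested on simulated data. The scripts ran in Python 3.11.15 with scipy 1.17.1, numpy 2.4.6, pandas 2.3.3 and matplotlib 3.10.9. TMM factors came from edgeR 4.0.16 in R 4.3.3, with no edgeR test.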

Additional observations from a re-analysis of the deposited data

How the results depend on the processing

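With 1 library for each condition, no replicate could be left out. No paired analysis was possible because each condition has 1 library. Of the values given under an alternative, 166 stayed within the spread set by counting error or within 1.5 times the count, 18 moved and 1 reversed. The 166 include share ratios with overlapping rows left out, which could not differ because 0 member rows overlapped another row. They also include values that could hardly differ, such as share ratios among rows of at least 100 counts and other pseudocounts for deeply read genes. A gene ratio could count as reversed only if the gene differed by at least 2-fold, and none did. A share or flank ratio could do so only if its main interval left out 1. The one that reversed was PKM M2, at 0.767 against its downstream flank alone and 1.34 against its upstream flank alone, and M1 was at 0.796 and 1.39, with intervals that included 1. The log2 ratio of PKM was -0.72 with TMM factors, -0.74 with median-of-ratios size factors and -0.75 without mitochondrial rows, and that of FN1 was 0.29, 0.27 and 0.26. Member rows at least 2-fold higher numbered 5 with a pseudocount of 0.1 (4.55%, against 8.73% of all rows) and 2 without mitochondrial rows (1.82%, against 4.26%). At 1.5-fold, 13 member rows were higher (11.8%, against 11.5% of all rows) and 8 were lower (7.27%, against 13.9%). Rows that gained share among neighbours numbered 1 with neighbours within 100 kb (0.901%, against 3.62% of all rows) and 0 of 88 with at least 100 reads (1.45% of all rows). Rows that lost share numbered 0 of 14 with neighbours within 1 kb (2.48% of all rows), 0 of 93 at 20 percentage points (0.412%) and 1 of 88 with at least 100 reads (1.14%, against 1.25%). Against all other rows of the gene, the ratio was 1.05 for PKM M2 and 2.16 for FN1 EDB. Depth limits MST1R, CD44, the HIPK3 U exon and NUMB exon 3. Alternative regions or splice sites inside a row (FN1 EDA and IIICS, CRK) cannot be read from row counts.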

Other observations

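Some rows outside the rule for named rows had few reads, and their values were picked after they were seen. Row 4 of PKM (chr15:72513509-72513625 on hg19) held 25 reads in control and 53 with BS008 (log2 ratio 0.65, share ratio 3.74, 2.28 to 6.28). In CD44, the first 5 rows held 11 reads in control and 29 with BS008, and the last row held 20 and 10. In BIN1, exon 14 of the linked transcript (chr2:127810998-127811021 on hg19, 24 bases) held 10 and 5 reads. In HIPK3, row 5 (chr11:33357204-33357312 on hg19), which was not linked to an exon of the HIPK3 transcript, held 1 and 4.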
